A study of Mus musculus with 18 samples.

Results

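The nuclear-encoded genes of the mitochondrial respiratory chain were followed across 6 sorted cell populations of the mouse trachea and lung. The members were chosen by symbol, after Entrez gene identifiers had been matched to symbols: protein-coding genes whose symbol starts with Nduf, Uqcr, Cox4, Cox5, Cox6, Cox7 or Cox8, together with Cyc1 and the succinate dehydrogenase genes Sdha, Sdhb, Sdhc and Sdhd. This gave 79 of the 27179 genes counted, of which 46 belong to complex I, 4 to complex II, 9 to complex III and 20 to complex IV, and 4 further genes with a matching prefix were left out because they are annotated as pseudogenes. Of the 79 members, 74 had enough reads to be tested. The 5 that did not were Uqcr11, Cox7b2, Cox8c and the gene copies Ndufb4b and Ndufb4c.

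The study sorted cells from untreated C57BL/6 mice and sequenced their RNA, with 3 libraries per population and 18 in all. From the tracheas of mice 1 to 3 came the cells labelled basal (NGFR positive, here BSC for basal stem cell) and the remaining cells (NGFR negative, here Non-basal). From the lungs of mice 4 to 6 came 4 populations: airway cells enriched in ciliated cells (EpCAM and CD104 positive, CD24 high, here CD24hi), airway cells enriched in club cells (the same gate with CD24 low, CD24lo), alveolar cells (EpCAM positive, CD104 low, Alveolar) and non-epithelial cells (EpCAM negative, EpCAM-neg). Tracheal and lung populations came from different mice, so that organ and animal cannot be told apart in any comparison of BSC with Alveolar cells.

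The respiratory chain moves electrons from NADH and succinate to oxygen and pumps protons across the inner mitochondrial membrane, and ATP synthase uses the resulting gradient. Complex I oxidises NADH, complex II oxidises succinate and also belongs to the citric acid cycle, complex III passes electrons to cytochrome c, and complex IV, cytochrome c oxidase, reduces oxygen. The catalytic cores of complexes I, III and IV are built partly from subunits encoded by mitochondrial DNA, while all the genes counted as members lie in the nucleus. Several complex IV subunits exist as a widely expressed form and a form found in few tissues.

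Promoters of 62 members were found in the RefSeq promoter table for mouse build GRCm38.p6 (250 bases before to 50 after each start). The letters of 4 factors linked to mitochondrial genes were searched on both strands: the NRF1 motif, an ETS site as CCGGAAGT, YY1 as AANATGGC and ESRRA as CAAGGTCA. The NRF1 letters were in 13 of the 62 members (21.0%, against 7.17% of protein-coding genes in the same table), and the YY1 letters in 15 (24.2% against 7.46%). The ETS letters were in 4 members (6.45% against 5.69%) and the ESRRA letters in 2 (3.23% against 1.56%). These are counts of letters in a window, not of bound sites. Stretches upstream of 5 members that are described below are shown 5′ to 3′ on the strand of the gene, with the searched letters in capitals. They are Cox6a1 (chr5:115348982-115349129, minus strand, with 2 NRF1 matches), Ndufaf4 (chr4:24897833-24898082, plus strand, with an NRF1 match), Ndufs5 (chr4:123718203-123718436, minus strand, with ESRRA letters on the opposite strand and an NRF1 match), Ndufs8 (chr19:3912775-3913024, minus strand, with a YY1 match) and Cox7a2l (chr17:83514334-83514583, minus strand, with none of the 4).
Cox6a1: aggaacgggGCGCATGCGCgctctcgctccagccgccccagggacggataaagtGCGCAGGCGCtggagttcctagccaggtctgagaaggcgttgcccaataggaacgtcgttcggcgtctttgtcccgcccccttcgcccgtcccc
Ndufaf4: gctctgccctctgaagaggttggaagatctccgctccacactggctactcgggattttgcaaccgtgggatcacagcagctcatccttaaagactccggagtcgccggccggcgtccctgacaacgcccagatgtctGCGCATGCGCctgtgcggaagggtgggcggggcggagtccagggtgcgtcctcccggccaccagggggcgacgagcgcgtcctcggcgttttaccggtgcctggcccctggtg
Ndufs5: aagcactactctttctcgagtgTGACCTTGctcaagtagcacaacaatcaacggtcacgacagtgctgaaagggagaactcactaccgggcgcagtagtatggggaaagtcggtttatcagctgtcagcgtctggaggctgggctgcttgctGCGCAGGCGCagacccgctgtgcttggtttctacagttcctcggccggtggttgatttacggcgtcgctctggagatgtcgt
Ndufs8: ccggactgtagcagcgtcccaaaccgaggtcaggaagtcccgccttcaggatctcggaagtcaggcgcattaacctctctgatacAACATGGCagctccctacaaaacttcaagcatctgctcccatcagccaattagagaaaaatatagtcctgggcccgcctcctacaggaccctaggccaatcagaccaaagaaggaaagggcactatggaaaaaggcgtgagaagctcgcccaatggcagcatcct
Cox7a2l: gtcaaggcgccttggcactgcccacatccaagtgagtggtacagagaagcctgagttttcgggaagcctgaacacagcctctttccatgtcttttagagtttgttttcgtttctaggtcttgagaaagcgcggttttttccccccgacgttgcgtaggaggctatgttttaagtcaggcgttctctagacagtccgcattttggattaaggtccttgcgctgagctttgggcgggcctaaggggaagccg

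Depth and composition differed between the libraries. Counts assigned to genes ran from 29317215 to 32993621 in the 6 tracheal libraries and from 9811503 to 13208897 in the 12 lung libraries. The tracheal totals are larger than the read numbers that the study's methods give for mouse samples, for a reason not given in the sources used here, and counting intervals and read floors rest on the counts as deposited. The 10 most abundant genes took 30.8% to 36.5% of the reads in CD24lo, 26.04% to 27.0% in Alveolar and 25.8% to 26.8% in Non-basal, but 8.28% to 10.3% in the other 3 populations, so results are given on the TMM scale and, where they differ, also scaled by library size alone. Sorting markers followed the labels: summed basal markers were 1717 to 1801 RPKM (reads per kilobase of gene, scaled for depth) in BSC, and summed alveolar type 2 markers were 163942 to 183432 RPKM in Alveolar. Summed club markers were highest in CD24lo (490208 to 690882 RPKM), ciliated markers in CD24hi (1336 to 1479 RPKM) and fibroblast markers in EpCAM-neg (5238 to 5442 RPKM). Club markers were also read in CD24hi (72535 to 95286 RPKM), Non-basal (82843 to 92023 RPKM) and BSC (9593 to 11601 RPKM). Library 1 of CD24hi stood apart in its reads from mitochondrial DNA, which made up 1.46% of its counts against 2.32% and 2.88% in the other two.

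The members together took 0.359% of the reads in BSC (median of 3 libraries), 0.342% in Non-basal, 0.425% in CD24hi, 0.360% in CD24lo, 0.297% in EpCAM-neg and 0.396% in Alveolar. At least 1 difference among the 6 populations was found for 73 of the 74 members tested, where 94.4% of all 17989 genes tested had one. The exception was the assembly factor Ndufaf2. Levels across genes are compared per length, as RPKM. Alveolar was the highest population for 22 members and CD24hi for 21, whereas BSC was the lowest for 32 and EpCAM-neg for 29. These counts are on the TMM scale and were not made over all genes, so they cannot tell the members from genes at large.

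By complex, the mean level of the 11 widely expressed complex IV subunits, as log2(RPKM + 1), was 5.90 ± 0.08 in BSC (SD, n = 3), 6.33 ± 0.08 in Non-basal, 6.77 ± 0.17 in CD24hi, 6.65 ± 0.09 in CD24lo, 5.97 ± 0.04 in EpCAM-neg and 6.66 ± 0.10 in Alveolar. On the TMM scale BSC and EpCAM-neg lay below all other libraries and overlapped each other, and the 3 lung epithelial populations overlapped one another. The 29 accessory subunits of complex I, which surround the catalytic core, had the same split: 4.97 ± 0.09 in BSC and 5.05 ± 0.02 in EpCAM-neg, against 5.38 ± 0.07 in Non-basal, 5.52 ± 0.19 in CD24hi, 5.53 ± 0.06 in CD24lo and 5.64 ± 0.05 in Alveolar. The 7 nuclear core subunits of complex I were closer together, from 5.25 ± 0.03 in EpCAM-neg to 5.66 ± 0.03 in Alveolar. The 8 complex III subunits with reads were lowest in EpCAM-neg (5.97 ± 0.01) and between 6.42 ± 0.07 (BSC) and 6.66 ± 0.05 (Non-basal) elsewhere. Complex II ranged only from 4.48 ± 0.07 in BSC to 4.83 ± 0.05 in Alveolar, an average that includes the scarcely read Sdhd. All these levels are on the TMM scale, whose factors were 1.17 to 1.20 in BSC and 0.92 to 0.93 in Non-basal. They were not computed by library size alone, so the gap between BSC and Non-basal may depend on the scaling.

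**Figure D1:**
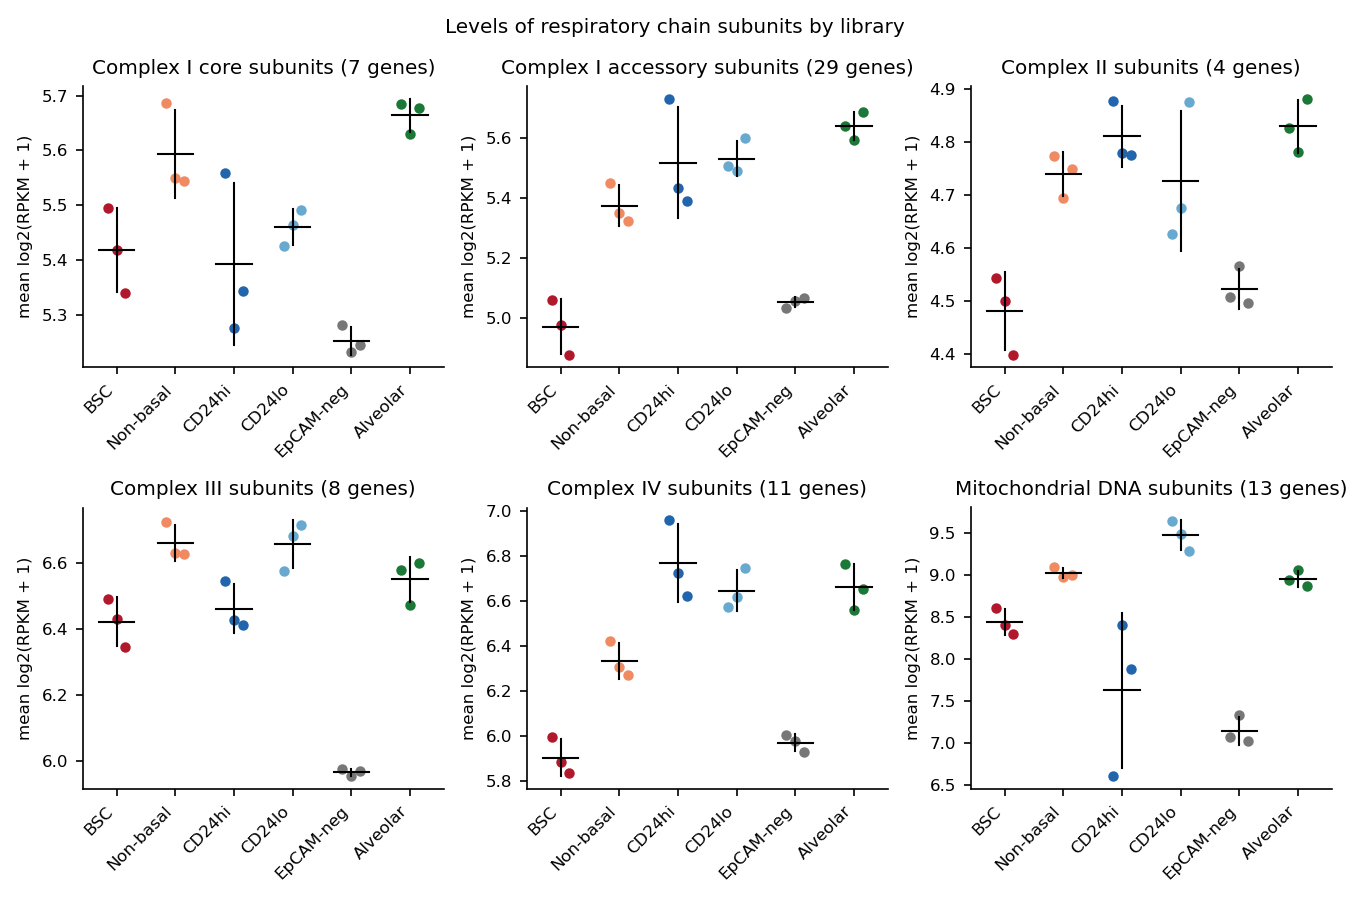
Mean log2(RPKM + 1) over the genes of each set, 1 point per library, with the mean and SD of the 3 libraries as lines. Levels are on the TMM scale, and the axes do not start at 0. BSC and EpCAM-neg lie lowest for complex IV (5.90 and 5.97) and for the accessory subunits of complex I (4.97 and 5.05), and library 1 of CD24hi lies far below its partners for the subunits encoded by mitochondrial DNA (6.61 against 8.40 and 7.88).

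Within the trachea, most members were lower in the basal cells than in their NGFR-negative neighbours. Of the 74 members tested, 41 fell and 2 rose in BSC against Non-basal (adjusted p under 0.05, edgeR's quasi-likelihood test with Benjamini-Hochberg adjustment over all genes), where 26.2% of all genes tested were lower and 21.9% higher. The median log2 fold change was -0.33 for the members and -0.02 for all genes. Scaled by library size alone these became 0.02 and 0.31, with 7 members lower and 8 higher, so the members' direction depends on the scaling. Such a change moves all genes by nearly the same amount. It therefore cannot test the members' position below the middle of all genes. In bulk populations, fewer cells of a type and less RNA per cell cannot be told apart. Members are short (median 679 bases against 1976 for all genes), and after a correction for the trend with gene length 27 were lower and 2 higher.

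Among the roles, 20 of the 29 accessory subunits of complex I fell and none rose, compared with 2 of the 7 core subunits. Most accessory genes are shorter than the shortest core gene (Ndufs7, 758 bases). In no comparison were calls by role counted after the length correction, so the part of gene length in this split was not tested. By library size alone, of the accessory subunits only Ndufa1, Ndufa3, Ndufc1 and Ndufc2 stayed lower in BSC than in Non-basal. The core subunits Ndufs3 and Ndufv2 were no longer called. Calls by role were not counted by library size alone in the other comparisons. In complex II 3 of 4 fell, in complex III 5 of 8 fell and 1 rose, and in complex IV 9 of 18 fell and 1 rose. By library size alone the falls in complexes II and III were no longer called, and of those in complex IV only Ndufa4 was (-0.58). Among called members with a mean of at least 10 CPM and no overlap between the groups, the largest fall was in Ndufa4, which carries a complex I name but is a subunit of complex IV: 131, 115 and 105 RPKM in BSC against 239.5, 222 and 209 in Non-basal. Every BSC library lay below every Non-basal library (log2 fold change -0.93 ± 0.09 SE, adjusted p = 1.95e-07). The accessory subunit Ndufa1 had 47.8, 46.6 and 44.2 RPKM in BSC and 85.5, 86.1 and 85.9 in Non-basal, again without overlap (-0.89, adjusted p = 1.87e-06). The other falls named by the rule were the accessory subunit Ndufc1 (-0.78), the assembly factor Ndufaf3 (-0.77) and Ndufaf7 (-0.74), a methyltransferase that acts in complex I assembly.

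The 2 members that rose were Cox7a2l and Uqcrc1. Cox7a2l is a relative of complex IV subunit 7a, described as a factor for joining complexes III and IV into supercomplexes. Its activity in C57BL/6 mice was not examined here. Cox7a2l had 77.5, 78.8 and 79.8 RPKM in BSC and 56.2, 52.2 and 56.9 in Non-basal (log2 fold change 0.51 ± 0.08 SE, adjusted p = 6.45e-05). Uqcrc1, a core protein of complex III, had 113, 117 and 103 RPKM in BSC and 87.9, 80.0 and 86.3 in Non-basal (0.39 ± 0.10, adjusted p = 0.00422). Neither gene's groups overlapped. Of the 74 members tested, Uqcrc1 was also the only one whose mean was highest in BSC among all 6 populations, ahead of Non-basal without overlap.

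Against the alveolar cells, the lower level of most members in BSC was wider still. In BSC 52 of the 74 members were lower and 3 higher than in Alveolar, where 35.6% and 30.5% of all genes were, and the median log2 fold change was -0.49 for the members and -0.09 for all genes. Scaled by library size alone, 30 were lower and 19 higher (members -0.08, all genes 0.29), and after the gene length correction 34 were lower and 11 higher (members -0.21). Of complex IV, 17 of 18 members tested were lower and none higher, with 6 tissue isoforms among those lower. By library size alone the calls for Cox4i1 (0.08), Cox5a (0.08), Cox6b1 (-0.07), Cox7a2l (-0.08) and Cox7b (0.06) were lost. Accessory subunits of complex I were lower in 23 of 29, core subunits in 4 of 7, complex II in 2 of 4 and complex III in 4 of 8.

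Ndufc2, an accessory subunit in the membrane arm of complex I, had 48.2, 47.5 and 39.3 RPKM in BSC and 144, 138 and 154 in Alveolar. The groups were far apart, and EpCAM-neg, at 47.0, 48.0 and 43.1 RPKM, overlapped BSC. The log2 fold change of BSC against Alveolar was -1.69 ± 0.10 SE (adjusted p = 1.06e-10). Ndufb11, another membrane arm subunit, encoded on the X chromosome, was highest in Alveolar at 186, 186 and 198 RPKM and had 79.4, 79.7 and 71.9 in BSC (-1.30, adjusted p = 8.30e-10). Ndufa6 (-1.38) and Ndufb3 (-1.17), both accessory subunits, also fell without overlap. The 3 members that were higher in BSC were Uqcrc1 (0.72 ± 0.10, adjusted p = 8.00e-06) and the assembly factors Ndufaf4 (0.71 ± 0.20, adjusted p = 0.00410) and Ndufaf5 (0.44, adjusted p = 0.0409). The call for Ndufaf5 was lost whichever of the 6 libraries was left out, with adjusted p from 0.0640 to 0.112. Calls were also counted by promoter letters, with no test of the difference. Of the 13 members with the NRF1 letters 3 were higher, Ndufaf5 included, and 7 lower, against none higher and 34 lower of the 46 without them. For YY1 it was 0 higher and 12 lower of 15 with the letters, against 3 and 29 of 44 without. For NRF1 in BSC against Non-basal, 1 was higher and 5 lower with the letters, against 1 and 31 without. In CD24hi against CD24lo it was 3 and 4 with, against 10 and 9 without. Against Alveolar, CD24hi had 2 and 3 with and 9 and 10 without, and CD24lo 1 and 3 with and 7 and 10 without. In EpCAM-neg it was 1 and 6 with, against 3 and 38 without.

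**Figure D2:**
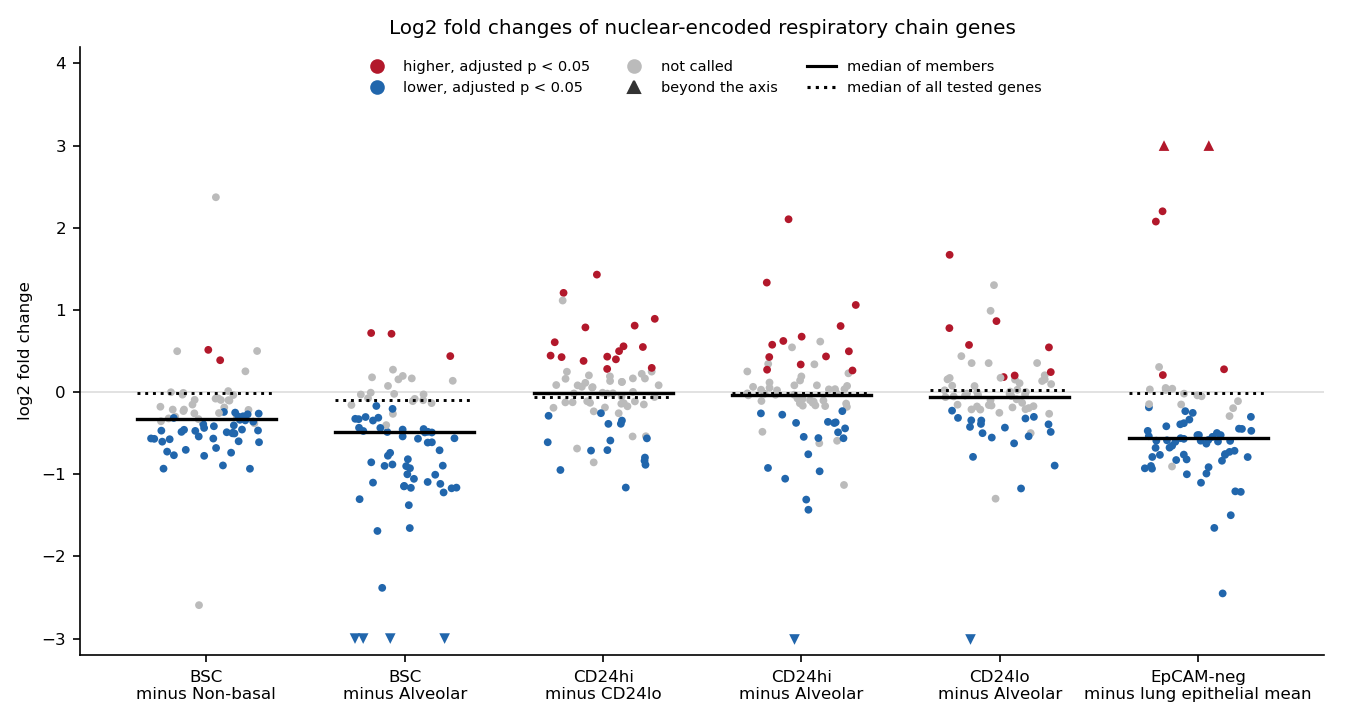
Log2 fold change of the 74 tested members in the 6 comparisons, 1 point per gene, red or blue where the adjusted p is under 0.05 and triangles where the value lies beyond the axis. Solid lines are the medians of the members and dotted lines those of all genes; the lines lie furthest apart in EpCAM-neg (-0.55 and -0.01) and in BSC against Alveolar (-0.49 and -0.09). Comparisons with Alveolar share those 3 libraries.

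Between the airway gates of the lung, members moved in both directions. In CD24hi against CD24lo 16 members were higher and 15 lower, where 27.8% and 27.2% of all genes were, with a median of -0.01 for the members and -0.06 for all genes. The counts depended on scaling and on the libraries fitted: scaled by library size alone 36 were higher and 7 lower, after the length correction 25 and 11, and in a fit of these 2 populations alone 8 and 8. Without CD24hi replicate 1, 23 were lower. The assembly factors of complex I divided evenly, with 3 of 8 higher and 3 lower.

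Ndufaf3, which acts early in complex I assembly, had 58.5, 47.4 and 46.3 RPKM in CD24hi and 22.1, 16.2 and 18.1 in CD24lo. CD24hi was above every library of the other 5 populations, none of which exceeded 22.1 RPKM (log2 fold change against CD24lo 1.43 ± 0.14 SE, adjusted p = 1.02e-07; against Alveolar 1.33 ± 0.14, adjusted p = 1.27e-07). Ndufaf8, another assembly factor, had 42.9, 35.8 and 28.2 RPKM in CD24hi and 25.3, 16.7 and 19.8 in CD24lo (0.79, adjusted p = 9.02e-04). Other rises were in the accessory subunits Ndufb5 (0.56), with 95.9, 87.6 and 92.7 against 60.7, 66.5 and 60.4 RPKM, and Ndufa11 (0.61), in the core subunit Ndufs7 (0.50), and in Ndufs5 (0.55), an accessory subunit with 38.5, 27.9 and 22.4 RPKM in CD24hi against 20.3, 20.8 and 19.7 in CD24lo. The call for Ndufs5 was lost without CD24hi replicate 1. Fitted on these 2 populations alone, the adjusted p was 0.070 for Ndufa11 and 0.072 for Ndufs7.

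In the other direction, Ndufa5, an accessory subunit of the peripheral arm, had 26.7, 19.3 and 17.8 RPKM in CD24hi and 41.8, 46.5 and 54.7 in CD24lo. The gates did not overlap, and CD24hi was the lowest population on average (log2 fold change -1.16 ± 0.14 SE, adjusted p = 1.93e-06). Uqcr10, a small subunit of complex III, stood at 199.8, 216 and 216 RPKM in CD24lo, above all other populations, and at 141, 97.4 and 88.8 in CD24hi (-0.95 ± 0.13, adjusted p = 6.43e-06). Cox7a2l fell from 77.1, 87.3 and 81.8 RPKM in CD24lo to 48.8, 41.8 and 42.7 in CD24hi (-0.88 ± 0.09, adjusted p = 1.17e-07). The core subunit Ndufs8 (-0.71) and the assembly factor Ndufaf4 (-0.84) were lower as well.

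Relative to Alveolar, CD24hi had 13 members higher and 19 lower, where 30.5% and 31.4% of all genes were, with medians of -0.04 for the members and -0.01 for all genes. Scaled by library size alone, 32 were higher and 8 lower (members 0.28, all genes 0.29), in a fit of these 2 populations alone 15 and 11, and 29 were lower without CD24hi replicate 1. Assembly factors of complex I were higher in 4 of 8 and lower in none. Besides Ndufaf3 these included Ndufaf7, with 18.02, 16.6 and 17.8 RPKM in CD24hi against 9.49, 8.67 and 6.93 in Alveolar (1.06, adjusted p = 2.70e-07), and Ndufaf8 (0.58). The accessory subunit Ndufs4, part of the NADH-oxidising arm, had 34.9, 34.8 and 34.7 RPKM against 19.8, 22.7 and 23.0 (0.67 ± 0.09, adjusted p = 2.57e-06), and Cox5a of complex IV rose by 0.43. Falls were in Cox7a2l (-1.31 ± 0.09, adjusted p = 3.34e-10), Ndufa5 (-1.05), Ndufb11 (-0.92) and Ndufs8, which had 32.4, 23.5 and 24.3 RPKM against 51.8, 52.4 and 52.1 (-0.96 ± 0.11, adjusted p = 7.95e-07).

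The comparison of CD24lo with Alveolar, which shares the Alveolar libraries with those above, called fewer members. There 8 members were higher and 19 lower, where 24.2% of all genes were higher and 24.2% lower, with medians of -0.06 for the members and 0.03 for all genes. The length correction gave 5 higher and 28 lower. The count of lower members was 12 without CD24lo replicate 2, 12 without CD24lo replicate 3 and 11 without Alveolar replicate 3, and the count of higher members was 4 without CD24lo replicate 3 and 4 without Alveolar replicate 2. Ndufaf7 had its highest level in CD24lo, 22.7, 28.8 and 28.6 RPKM, above every other library of the study (against Alveolar 1.67 ± 0.12 SE, adjusted p = 1.68e-09). Uqcr10 (0.86, adjusted p = 2.37e-05) and Ndufa1 (0.54) were higher too, and the cytochrome c1 gene Cyc1 (-0.55), Ndufb11 (-0.79), Ndufs7 (-0.54) and Ndufa6 (-0.62) were lower. Smaller rises of Ndufs4 (0.24, adjusted p = 0.0315) and of the core subunit Ndufv2 (0.20, adjusted p = 0.0447) passed the threshold narrowly; leaving out CD24lo replicate 2 or 3 or Alveolar replicate 1 ended the call for Ndufs4, leaving out CD24lo replicate 3 or any Alveolar replicate ended it for Ndufv2, and leaving out CD24lo replicate 2 or Alveolar replicate 3 ended it for Ndufa6.

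**Figure D3:**
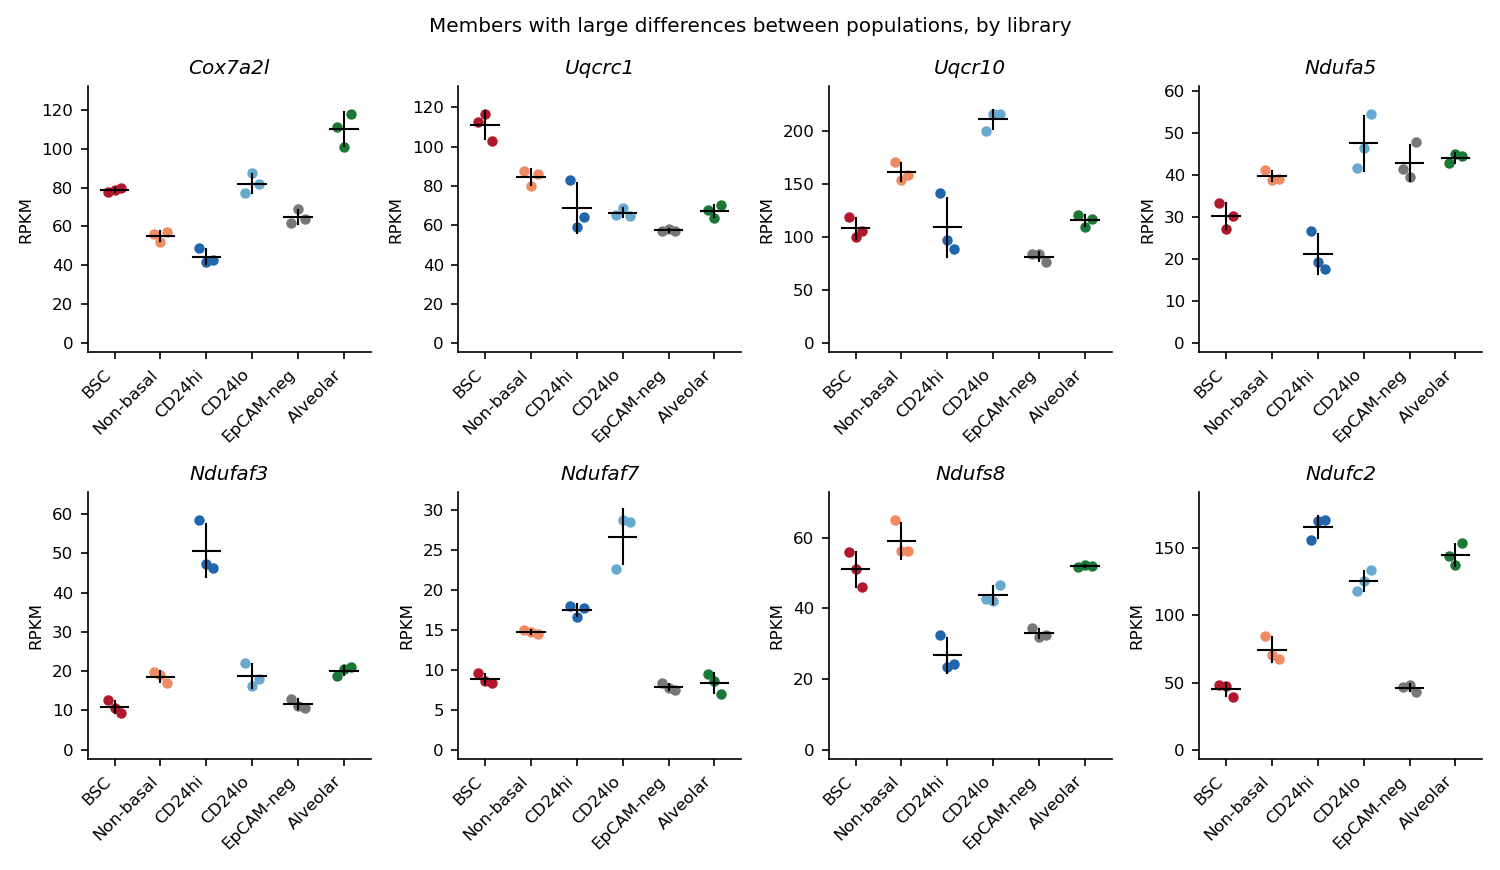
RPKM of 8 members by population, 1 point per library, with the mean and SD as lines. Cox7a2l is highest in Alveolar (101 to 118), Uqcrc1 in BSC (103 to 117), Uqcr10 and Ndufaf7 in CD24lo (199.8 to 216 and 22.7 to 28.8) and Ndufaf3 in CD24hi (46.3 to 58.5), each without overlap with the next population.

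In the non-epithelial cells of the lung most members were lower. In EpCAM-neg, against the mean of the 3 lung epithelial populations, 54 of 74 members were lower and 6 higher, where 33.4% and 35.5% of all genes were, with medians of -0.55 for the members and -0.01 for all genes. The length correction gave 45 lower and 7 higher with a median of -0.31. All 8 tested subunits of complex III fell, as did 23 of 29 accessory and 4 of 7 core subunits of complex I. Of these, the call for Uqcrc1 (-0.23) was lost without EpCAM-neg replicate 1 or 2 and by library size alone (-0.16). The complex IV subunit Cox5a had 44.6, 43.2 and 37.0 RPKM, below every library of the other 5 populations, of which the lowest had 60.5 (-1.21 ± 0.08 SE, adjusted p = 4.85e-10). Ndufc2 (-1.65 ± 0.09, adjusted p = 2.00e-11), Ndufaf3 (-1.21), Ndufb5 (-0.99) and Ndufa3 (-0.93) also fell without overlap with the lung epithelial libraries. Of the 6 higher members, 4 were tissue isoforms, described below, and the others were the accessory subunits Ndufa5 (0.28) and Ndufv3 (0.21), whose calls were lost in 8 and 9 of the 12 fits that left out 1 library.

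**Figure D4:**
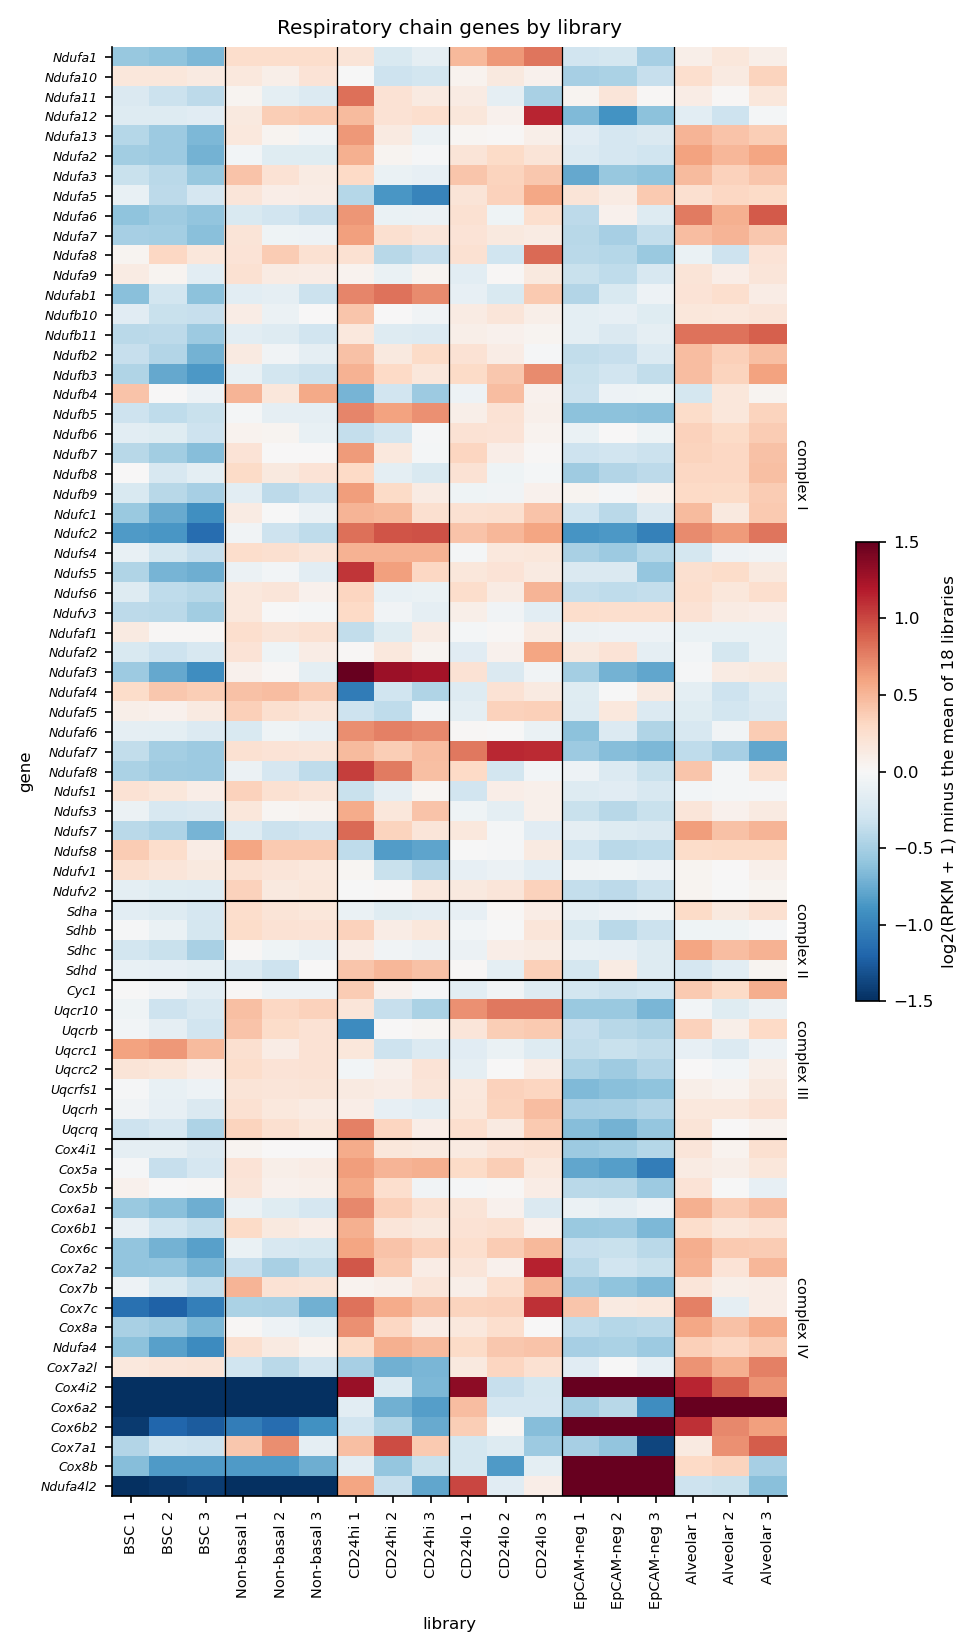
Levels of 73 tested members in the 18 libraries, as log2(RPKM + 1) minus the gene's mean over all libraries, ordered by complex, with colours limited to 1.5 in either direction. On the TMM scale BSC and EpCAM-neg hold mostly blue (lower) cells, and the tissue isoforms at the bottom hold the strongest contrasts.

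The largest differences of any member were in isoforms of complex IV subunits. Cox6a2, known as the heart and skeletal muscle form of subunit 6a, had 118, 98.6 and 108 RPKM in Alveolar (885, 706 and 703 reads). It had no reads in any BSC library, 3 reads in all of Non-basal, and 0.924 to 4.05 RPKM in CD24hi, CD24lo and EpCAM-neg. Alveolar was therefore at least 2542-fold higher than BSC, taking a floor of 3 reads over the BSC group, and 2108-fold higher than Non-basal (95% interval 720.3 to 10227, counting error only). In the fit its log2 fold change was -6.13 ± 0.27 SE in CD24hi against Alveolar (adjusted p = 1.44e-11) and -5.27 ± 0.26 in CD24lo (adjusted p = 1.12e-10). Its widely expressed counterpart Cox6a1 was read everywhere, at 292 ± 15.4 RPKM in Alveolar and 136 ± 8.47 in BSC, so Cox6a2 made up 27.0% ± 0.774 of the 2 forms in Alveolar.

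Muscle markers did not follow Cox6a2. In Alveolar the 6 heart muscle markers summed to 7.58 to 11.1 RPKM and the 6 skeletal muscle markers to 1.71 to 2.94, while heart muscle markers were higher in CD24hi (78.0 to 150.01, mostly Tnni3) and in EpCAM-neg (155 to 183, mostly Actc1), where Cox6a2 was low. The levels of Cox6a2 in CD24hi, CD24lo and EpCAM-neg were 1.42%, 2.54% and 1.31% of the alveolar level, and the summed alveolar type 2 markers there were 0.947%, 3.59% and 0.421% of theirs; the part of alveolar cells in these gates in the low Cox6a2 counts was not tested. Exons of Cox6a2 (chr7:128205435-128206366) overlap Itgad on the opposite strand over 10.3% of their length, and Itgad had 0 to 4 reads in each library.

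Cox4i2, the form of subunit 4 known from lung and from oxygen sensing, was highest in EpCAM-neg, with 17.1, 18.6 and 30.9 RPKM. Alveolar had 7.51, 6.08 and 5.14, CD24hi 8.41, 2.34 and 1.41, and CD24lo 8.74, 2.03 and 2.22. The 6 tracheal libraries together held 3 reads, and no EpCAM-neg library overlapped the others (against the lung epithelial mean 2.20 ± 0.37 SE, adjusted p = 3.71e-05). Its share of Cox4i1 and Cox4i2 together was 9.77% ± 2.56 in EpCAM-neg and 1.93% ± 0.395 in Alveolar. Ndufa4l2, a hypoxia-inducible relative of Ndufa4, had 24.6, 26.3 and 27.9 RPKM in EpCAM-neg, at most 4.69 in any other library, and no reads in Non-basal (3.89 ± 0.28, adjusted p = 4.28e-09). It made up 15.6% ± 1.10 of Ndufa4 and Ndufa4l2 in EpCAM-neg.

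Library 1 of CD24hi and library 1 of CD24lo, from the same mouse, held the highest Cox4i2 and Ndufa4l2 of their populations (3.29 and 4.69 RPKM for Ndufa4l2). Endothelial markers summed to 115 and 165 RPKM in those libraries, against 35.3 to 88.5 in the other 4 of these gates. The 7 smooth muscle and pericyte markers summed to 1065 to 1108 RPKM in EpCAM-neg, to 30.5 in library 1 of CD24hi against 13.1 and 23.4 in the other two, and to 99.5 in library 1 of CD24lo against 52.0 and 94.5. Their part in the 2 isoforms' levels was not tested.

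Cox6b2, known as the testis form of subunit 6b, had 48.3, 48.4 and 48.8 RPKM in EpCAM-neg and 23.9, 18.1 and 16.9 in Alveolar. All other libraries had 14.02 or less, and no EpCAM-neg library overlapped another population (2.08 ± 0.15 SE, adjusted p = 6.22e-10). Cox6b2 was 27.3% ± 1.15 of the 2 forms of subunit 6b in EpCAM-neg and 2.27% ± 0.400 in BSC. The 4 male germ cell markers summed to at most 0.566 RPKM in any library. Cox8b, a form of subunit 8 known from heart, muscle and brown fat, had 9.51, 6.82 and 7.97 RPKM in EpCAM-neg from 43, 30 and 38 reads, and at most 1.27 RPKM elsewhere (3.89 ± 0.38, adjusted p = 5.78e-08). Of the muscle markers, Actc1 (155 RPKM on average), Tnnt2 (5.72) and Tnnt3 (3.92) were also higher in EpCAM-neg than in CD24hi (3.37, 0.593 and 0.0673), while Tnni3 was not (4.65 against 106). As whole lists, the 6 heart muscle markers summed to 155 to 183 RPKM in EpCAM-neg and 78.0 to 150 in CD24hi. The 6 skeletal muscle markers overlapped, at 6.11 to 8.58 RPKM in EpCAM-neg and 6.97 to 7.06 in CD24hi. The 4 fat markers summed to 0.816 to 1.125 RPKM in EpCAM-neg, with Adipoq and Ucp1 at 0, and to 12.6 to 15.6 in CD24hi, nearly all of it Cidea (13.6 RPKM). The part of muscle or fat cells in the level of Cox8b was not tested.

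Cox7a1, the muscle form of subunit 7a, had 3 to 61 reads per library and 20 to 142 per population. It was lower in BSC than in Non-basal (-0.93 ± 0.31 SE, adjusted p = 0.0180) and higher in CD24hi than in CD24lo (1.21 ± 0.39, adjusted p = 0.0135). The first call was lost without BSC replicate 1 or Non-basal replicate 2, and by library size alone (-0.59). With the tracheal libraries thinned to the depth of the lung, that difference became 0.19. The second call was lost without CD24hi replicate 2. Cox7b2 (5 reads in all) and Cox8c (1 read), both known from testis, were practically unread. Their counterparts Cox7b and Cox8a had 39.0 to 74.6 and 142 to 302 RPKM as population means.

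**Figure D5:**
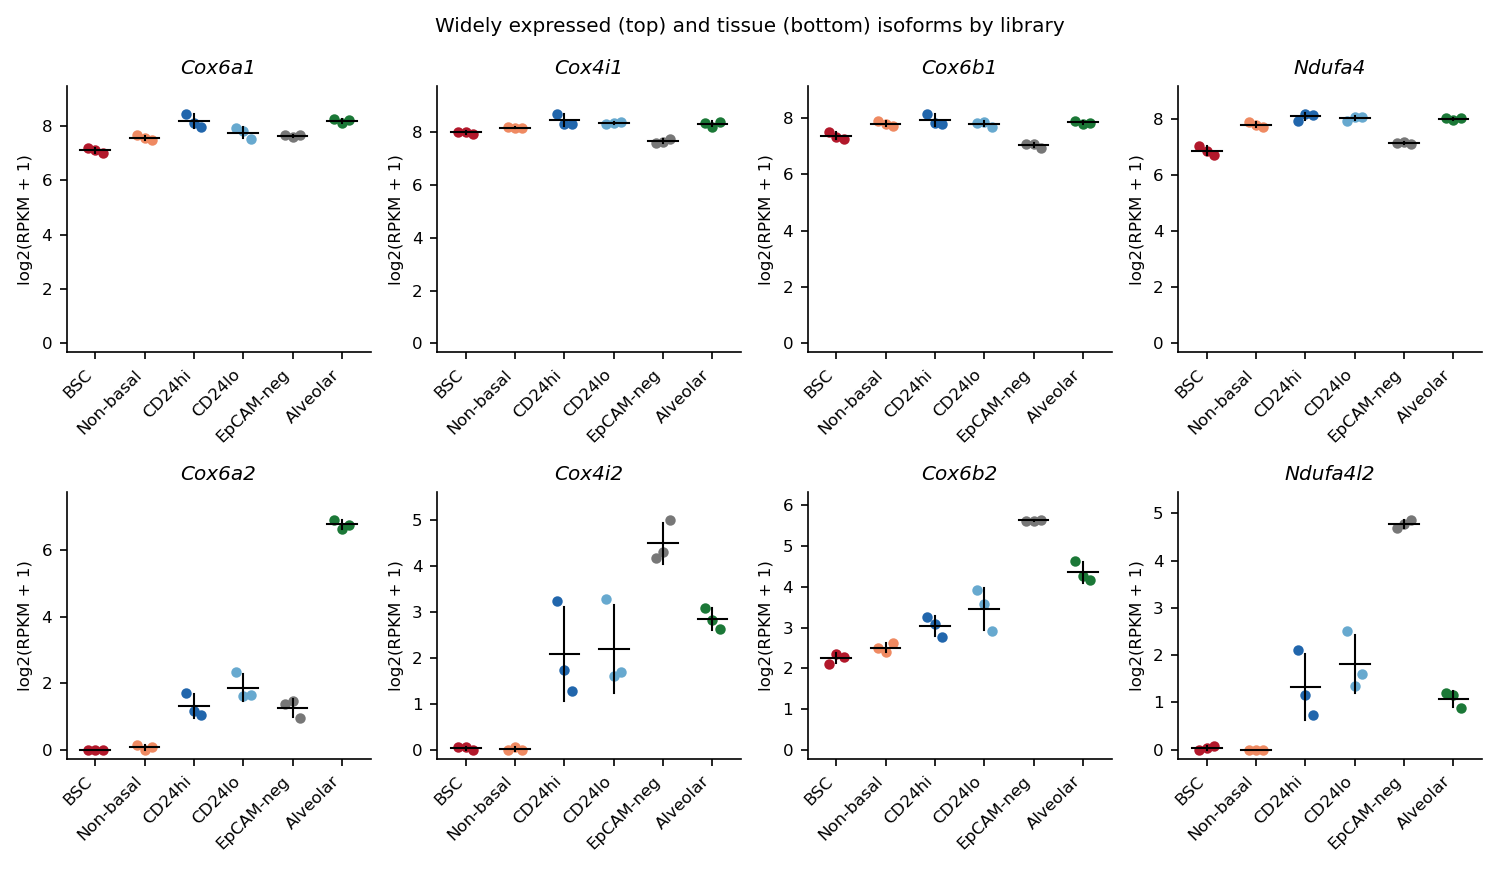
Levels, as log2(RPKM + 1), of 4 widely expressed genes (top) and their tissue isoforms (bottom), 1 point per library, with the mean and SD as lines. The upper genes were read in all populations, with population means between 117 RPKM (Ndufa4 in BSC) and 352 RPKM (Cox4i1 in CD24hi), whereas Cox6a2 is high in Alveolar (98.6 to 118 RPKM) and Cox4i2, Cox6b2 and Ndufa4l2 are highest in EpCAM-neg.

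The 7 nuclear core subunits of complex I, which together carry its flavin and its iron-sulphur clusters, did not move together. In BSC against Non-basal only Ndufs3 (-0.27) and Ndufv2 (-0.40) were lower, the call for Ndufs3 being lost without BSC replicate 2 or 3 or Non-basal replicate 1. By library size alone neither was called (0.08 and -0.06). Ndufs1 (-0.10), Ndufs7 (-0.25) and Ndufs8 (-0.21) did not pass the test, and Ndufv1 had 54.0 ± 1.98 RPKM in BSC and 54.0 ± 1.36 in Non-basal. Lower in BSC than in Alveolar were Ndufs7 (-1.06), Ndufs3 (-0.31) and Ndufv2 (-0.20), but Ndufs3 and Ndufv2 turned to 0.09 and 0.20 when scaled by library size alone, and the call for Ndufv2 was lost without BSC replicate 2 or 3 or Alveolar replicate 1 or 3. In CD24hi against Alveolar Ndufs8 (-0.96) and Ndufv1 (-0.28) were lower and Ndufs3 (0.27) was higher. The call for Ndufv1 was lost without CD24hi replicate 2 or 3 or Alveolar replicate 3, and that for Ndufs3 without CD24hi replicate 1 or 3 or Alveolar replicate 2. In EpCAM-neg Ndufs3, Ndufs7, Ndufs8 and Ndufv2 were lower (-0.54, -0.52, -0.25 and -0.47). The call for Ndufs8 was lost without EpCAM-neg replicate 2 and by library size alone (-0.19).

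Of complex II, the membrane anchor Sdhc was highest in Alveolar, with 107, 98.0 and 101 RPKM against 50.3 to 77.2 in every other library. It was lower than in Alveolar in BSC (-0.90), CD24hi (-0.54) and CD24lo (-0.48). The flavoprotein Sdha had 84.4 ± 4.46 RPKM in Alveolar and 83.3 ± 3.01 in Non-basal and was lower in BSC than in either (-0.43 and -0.42). The iron-sulphur subunit Sdhb fell in BSC against Non-basal (-0.36) and was higher in CD24hi than in Alveolar (0.26), a call lost without CD24hi replicate 1. By library size alone, Sdha was no longer called in BSC against Alveolar (-0.03) or Non-basal (-0.07). Neither was Sdhb in BSC against Non-basal (-0.01). Sdhd, the other anchor, had 7 to 38 reads per population, and its difference in CD24hi against Alveolar (2.10) rested on 38 and 7 reads and was lost without Alveolar replicate 1. In complex III, Cyc1 was lower in BSC (-0.49), CD24hi (-0.26) and CD24lo (-0.55) than in Alveolar, the second being lost without CD24hi replicate 2 or 3 or Alveolar replicate 1 or 3. By library size alone Cyc1 was no longer called in BSC (-0.08) or CD24hi (0.06). The Rieske protein gene Uqcrfs1 fell in EpCAM-neg to 31.7, 32.6 and 33.1 RPKM, where all other libraries had 46.7 or more (-0.82).

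Subunits encoded by mitochondrial DNA, counted from the same libraries, did not follow the nuclear members between the lung gates. All 13 were lower in CD24hi than in CD24lo (median log2 fold change -1.59), where the nuclear members had 16 higher and 15 lower. Against Alveolar, 10 were lower in CD24hi (-1.16), with 9 to 12 lower when any single library was left out and 6 in a fit of these 2 populations alone. In CD24lo 4 were higher than in Alveolar (0.55), where 24.2% of all genes were, and 8 in a fit of those 2 populations alone. In EpCAM-neg 12 were lower (-1.42), in BSC 5 against Non-basal (-0.67) and 6 against Alveolar (-0.65). In these comparisons 33.4%, 26.2% and 35.6% of all genes were lower. The BSC counts depended on the processing. Against Non-basal, 3 were lower without BSC replicate 3 or without Non-basal replicate 1, 1 by library size alone (-0.32), 2 after the length correction, 8 with limma voom and 11 in a fit of these 2 populations alone. Against Alveolar, library size alone left 1 lower and 1 higher (-0.25), and the length correction 3 lower and 1 higher. Complex IV subunit COX1 had 9798, 8548 and 8619 RPKM in CD24lo and 2929, 4371 and 4045 in CD24hi. The 2 groups did not overlap, and library 1 of CD24hi was the lowest of its population. Without it the median in CD24hi against CD24lo was -1.40, with 13 lower. Highly read genes stood beside COX2, whose population means were only 25.5 to 123 RPKM, so levels of these genes are not compared with each other.

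The other genes of oxidative phosphorylation were counted beside all genes. Of all genes tested, 35.6% were lower and 30.5% higher in BSC than in Alveolar, and 26.2% and 21.9% in BSC than in Non-basal. In EpCAM-neg 33.4% were lower and 35.5% higher. Of 18 ATP synthase genes, 14 were lower and 1 higher in BSC than in Alveolar, 8 lower and 1 higher in BSC than in Non-basal, and 17 lower in EpCAM-neg. Scaled by library size alone, 8 were lower and 4 higher in BSC than in Alveolar, none lower and 4 higher in BSC than in Non-basal, and 16 lower in EpCAM-neg; after the length correction 8, 7 and 13 were lower. The exception in BSC was Atpif1, the inhibitor of ATP synthase, which was highest in CD24hi at 419.6, 357 and 353 RPKM, against 66.4 to 188 in every other library (CD24hi against CD24lo 1.33 ± 0.11 SE, adjusted p = 1.63e-08). Cycs, somatic cytochrome c, had only 0.880 to 1.38 RPKM as population means and was lower in BSC than in Alveolar (-0.65, adjusted p = 0.0191), a call that was lost by library size alone (-0.24). Of 17 tested assembly factors of complex IV, 9 were lower and 3 higher in BSC than in Alveolar, and 8 lower and 3 higher in EpCAM-neg; by library size alone the first became 4 lower and 6 higher. Of the 6 complex III assembly factors, 4 were lower and 1 higher in EpCAM-neg. Of the 4 complex II assembly factors 3 were lower in BSC than in Alveolar, and of 7 complex I assembly factors without an Nduf symbol 1 was lower and 1 higher, which by library size alone became none lower and 5 higher.

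Some members cannot be read at face value. Stretches of 30 bases shared with transcripts of other genes covered 54.9% of Uqcrb, 50.3% of Ndufs3 and 38.3% of Ndufb4, and how reads matching several places were counted is not given in the sources used here. Uqcr11, a small complex III subunit, had 3 reads in all 18 libraries, and Cox7c had 154 to 238 reads per population where the other complex IV subunit Cox8a had 3245 to 9623. Sdhd had population means of 0.137 to 0.749 RPKM, where the medians of the 4 complex II subunits were 57.0 to 73.5. The reason for these low counts was not tested. Exons of Ndufaf2, Ndufb6 and Ndufa13 overlap a gene on the opposite strand over 65.6%, 39.0% and 29.98% of their length, and whether counting used strand is not given either, so the reads of these pairs may not be told apart.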

How the data were processed

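RNA from 18 sorted samples (6 populations, 3 libraries each) was sequenced, and the authors aligned reads to mouse genome mm10 with Rsubread and counted them per Entrez gene with featureCounts and its in-built annotation. The deposited values are raw read counts, not normalised, for 27179 genes per library. The submitters' processing notes also name bcl2fastq 1.8.4. Symbols were matched for 25275 identifiers. Groups and mice came from the sample labels.

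Counts were tested with edgeR 4.0.16 (R 4.3.3, quasi-likelihood F test, TMM factors, all 18 libraries, 6 group means), on the 17989 genes above 0.2 CPM in at least 3 libraries, with Benjamini-Hochberg adjustment over all of them and a threshold of 0.05. The study's limma voom (limma 3.58.1) and DESeq2 1.42.0 were run as alternatives, with others given in the closing section, and the steps were tested on simulated data. RPKM used the files' gene lengths and TMM-scaled library sizes, and levels add a pseudocount of 1. Fold intervals are exact at 95%, and a floor of 3 reads over a group was used for zeros; both cover counting error only. Shares of an isoform are of summed RPKM.

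Depth was 9811503 to 32993621 counts per library. All pairs of replicates differed by more than sampling noise (lowest chi-square per degree of freedom 3.67). The labels tie populations of an organ to the same mice; deviations from group means correlated at -0.06 to 0.34 over 21 same-mouse pairs and at -0.05 to 0.06 over 24 other pairs.

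The members and gene lists were chosen with earlier results of these data known, and the list of mitochondrial DNA subunits after the files were seen. In each comparison the genes named are up to 5 members with the largest rise and 5 with the largest fall, among those called with a mean of at least 10 CPM and no overlap between the groups, plus tissue isoforms and their partners, complex II, the complex I core, Cyc1 and Uqcrfs1, and of the lists Atpif1, Cycs, Ppargc1a, Esrra, Nrf1 and Tfam. Single values of 1 member and of 1 citric acid cycle gene are not reported here. Other members named were chosen after their values were seen. The lists covered ATP synthase, cytochrome c, assembly factors, the citric acid cycle, biogenesis regulators, glycolysis and the mitochondrial ribosome.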

Additional observations from a re-analysis of the deposited data

How the results depend on the processing

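Members' medians relative to the median of all genes kept their sign under all alternatives without a left-out library in BSC against Non-basal (-0.35 to -0.18) and BSC against Alveolar (-0.47 to -0.15). The same held in CD24lo against Alveolar (-0.14 to -0.05) and EpCAM-neg (-0.54 to -0.29), and the medians lay near 0 in the other comparisons. Alternatives that change only the scaling factors move all genes by nearly the same amount, so they could not test this sign. DESeq2, RLE factors, a stricter CPM filter of 1, and tracheal counts thinned to lung depth, left every count of members within 1.5 times its reported value, and limma voom moved only the mitochondrial DNA count in BSC against Non-basal, to 8 lower. The replicate block (mouse within organ, and title number for BSC against Alveolar) changed no count by over 1.5 times; with it, BSC against Non-basal had 41 members lower and CD24hi against CD24lo 16 higher and 17 lower, and 2 named members gained a call.

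With library size alone, members numbered 8 higher and 7 lower in BSC against Non-basal (median 0.016), 19 and 30 in BSC against Alveolar (-0.085), 36 and 7 in CD24hi against CD24lo (0.28) and 32 and 8 in CD24hi against Alveolar (0.28), and the EpCAM-neg median was -0.49. Single genes turned as follows: in BSC against Non-basal Cyc1 0.32, Ndufs1 0.25, Ndufs3 0.077, Ndufv1 0.35, Sdhc 0.032 and Uqcrfs1 0.086; in BSC against Alveolar Cox4i1 0.081, Cox7b 0.060, Ndufs3 0.094, Ndufs8 0.38, Ndufv2 0.20, Sdhb 0.33 and Uqcrfs1 0.24; in CD24hi against CD24lo Sdhc 0.23 and Uqcrfs1 0.16; in CD24hi against Alveolar Cox6a1 0.31, Cox7b 0.30, Cyc1 0.058 and Ndufv1 0.041. Mitochondrial DNA subunits had 1 lower in BSC against Non-basal (-0.32) and 1 higher and 1 lower against Alveolar (-0.25). This alternative moves the median of all genes by its construction, to 0.31, 0.29, 0.21 and 0.29 in those 4 comparisons.

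The gene length correction gave 27 members lower in BSC against Non-basal (-0.16), 11 higher and 34 lower in BSC against Alveolar (-0.21), 25 higher in CD24hi against CD24lo, 5 higher in CD24lo against Alveolar (-0.17) and a median of -0.31 in EpCAM-neg. In BSC against Alveolar it turned Cox4i1 (0.067), Ndufs3 (0.024), Ndufs8 (0.30), Sdhb (0.23) and Uqcrfs1 (0.069). Mitochondrial DNA subunits had 2 lower in BSC against Non-basal (-0.47) and 1 higher and 3 lower against Alveolar (-0.31). Fits of only the libraries compared gave 6 members higher in BSC against Alveolar, 8 and 8 in CD24hi against CD24lo and 11 lower in CD24hi against Alveolar, and for mitochondrial DNA subunits 11 lower in BSC against Non-basal, 1 higher in BSC against Alveolar, 6 lower in CD24hi against Alveolar and 8 higher in CD24lo against Alveolar. With no filter on low counts 5 members were higher in CD24lo against Alveolar, and the thinned tracheal libraries turned Cox7a1 in BSC against Non-basal to 0.19. The cause was not tested.

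Leaving out 1 library at a time gave these ranges of members higher and lower: 2 to 2 and 33 to 40 in BSC against Non-basal, 2 to 2 and 48 to 53 in BSC against Alveolar, 14 to 21 and 11 to 23 in CD24hi against CD24lo, 9 to 14 and 13 to 29 in CD24hi against Alveolar, 4 to 10 and 11 to 17 in CD24lo against Alveolar, and 4 to 6 and 51 to 56 in EpCAM-neg, whose median ran from -0.62 to -0.51. Mitochondrial DNA subunits lower in BSC against Non-basal ranged from 3 to 6, and those higher in CD24hi against Alveolar from 0 to 1. Depth limits the scarcest members most: Sdhd, Cox8b and Cox7a1 had means of 0.380, 0.599 and 1.31 CPM, and small differences in them were not detectable.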

Other observations

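Genes outside the respiratory chain that serve it were counted in the same way. Of all genes tested, 27.8% were higher and 27.2% lower in CD24hi against CD24lo, and 30.5% and 31.4% in CD24hi against Alveolar. In EpCAM-neg these shares were 35.5% and 33.4%, in BSC against Non-basal 21.9% and 26.2%, and in BSC against Alveolar 30.5% and 35.6%. No difference of a list from these shares was tested. In CD24hi against CD24lo, 8 of 13 citric acid cycle genes were higher and none lower. Rises included Idh3a, a subunit of isocitrate dehydrogenase (log2 fold change 1.56 ± 0.11 SE, adjusted p = 5.18e-09) and the succinyl-CoA ligase genes Suclg2 (0.86) and Suclg1 (0.70). Against Alveolar, 6 of the 13 were higher and 2 lower in CD24hi. In EpCAM-neg 10 of the 13 were lower and none higher, Suclg1 by the most (-1.41). In BSC against Non-basal 2 were higher and 4 lower. Scaled by library size alone, a check of the lists added after the data were seen, these counts became 12 higher and none lower in CD24hi against CD24lo, 9 higher and none lower in CD24hi against Alveolar, 8 lower and 1 higher in EpCAM-neg, and 9 higher and 1 lower in BSC against Non-basal, so the last turned.

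The regulator Ppargc1a, a coactivator of mitochondrial biogenesis, had 4.57, 9.36 and 7.41 RPKM in CD24hi. Every other library had 2.90 or less (CD24hi against CD24lo 1.34 ± 0.18 SE, adjusted p = 5.94e-06; against Alveolar 2.01 ± 0.19, adjusted p = 3.74e-08). It was lowest in EpCAM-neg, at 0.556, 0.648 and 0.481 RPKM (-2.54). Esrra, a nuclear receptor that works with it, was lower in EpCAM-neg (-0.74), Nrf1 was higher in BSC than in Non-basal (0.45), and Tfam, which packages mitochondrial DNA, was lower in CD24hi than in CD24lo (-0.47). Of the 15 biogenesis regulators listed, 3 were higher and 6 lower in CD24hi than in CD24lo, and 5 higher and 2 lower in BSC than in Non-basal. By library size alone they were 5 higher and 3 lower, and 12 higher and 2 lower.

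Of 16 glycolysis genes, 7 were higher and 5 lower in BSC than in Alveolar, 5 higher and 8 lower in CD24hi than in CD24lo, and 3 higher and 9 lower in EpCAM-neg; by library size alone these became 11 and 3, 7 and 3, and 4 and 8, so that the balance in CD24hi turned. Of 77 tested proteins of the mitochondrial ribosome, 50 were lower and 4 higher in EpCAM-neg, and 39 lower and 11 higher in BSC than in Alveolar. The first held by library size alone (45 lower, 5 higher) and after the length correction (43 and 9), whereas the second turned, to 5 lower and 30 higher and to 14 lower and 18 higher.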
